A study of Mus musculus with 6 samples.

Results

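The TGF-beta ligands, their receptors and the latent TGF-beta binding proteins were examined in RNA sequencing of mouse embryonic fibroblasts (MEFs). The 10 genes were taken by symbol, namely the ligands Tgfb1, Tgfb2 and Tgfb3, the receptors Tgfbr1, Tgfbr2 and Tgfbr3, and the binding proteins Ltbp1, Ltbp2, Ltbp3 and Ltbp4, and all 10 were found among the 26231 genes of the table. They were chosen with the difference between the lines already known, above all that of Tgfb1 and Tgfb2, so their line differences are given as a description, and nothing is read from the counts of them past a threshold. The cells came from FVB embryos whose Nf2 alleles are flanked by loxP sites, taken at about 14 days by the sample labels and at 13 days by the paper's methods. Nf2 encodes Merlin, a tumour suppressor that links the cell membrane to the actin cytoskeleton. All cells were immortalized with SV40 large T antigen. One culture was transduced with a CMV-GFP lentivirus (MEF Nf2fl/fl, labelled WT and control, 3 libraries) and the other with a CMV-Cre GFP lentivirus (MEF Nf2-/-, labelled Nf2 KO, 3 libraries), and both were kept without serum for 24 h before RNA was taken. A single line stands for each genotype, so the genotype cannot be told apart from other differences between the lines, and nothing says that the libraries came from separate cultures, so p-values measure only the spread between these libraries.

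The TGF-beta ligands are secreted as inactive complexes in which the cleaved propeptide still holds the mature growth factor. Latent binding proteins attach most of these complexes to the extracellular matrix, where integrins and proteases can release the ligand. Free ligand binds the type II receptor, which phosphorylates the type I receptor, and the type I receptor then phosphorylates SMAD2 and SMAD3. In fibroblasts this pathway is best known for inducing matrix and contractile genes.

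The values were deposited as 1 number per gene and library and are read here as RPKM, read counts divided by exon length and by library depth. The low values came in steps that put the depth between 13462402 and 73093044 reads per library, and replicate 3 of both lines was the deepest. Nf2 itself had 14.3, 13.7 and 13.1 RPKM in MEF Nf2fl/fl against 15.4, 12.9 and 13.9 RPKM in those labelled MEF Nf2-/-, a log2 fold change of 0.03 ± 0.10 (SE, adjusted p = 0.987 by limma). The label Nf2-/- is therefore not borne out by the Nf2 RNA of these libraries, and every direction below follows the sample labels. The table holds no value for single exons. The 10 fibroblast markers summed to between 2465 and 3268 RPKM in MEF Nf2fl/fl and between 1700 and 2241 RPKM in those labelled MEF Nf2-/-, and 3 of the 9 tested fell, against 0.578% of all genes. With the replicate number as a block 5 of the 9 were lower, against 4.54% of all genes, Thy1 (adjusted p = 0.00716 by limma) and Col3a1 beside those 3. Among the 10 Fap was under 1 RPKM in every library, while Vim lay between 536 and 882 RPKM. Pdgfra, a receptor used to mark fibroblasts, fell from 9.75 ± 3.93 to 1.01 ± 0.386 RPKM (SD, n = 3 each; adjusted p = 0.0329 by limma), and S100a4 fell from 684 ± 62.9 to 297 ± 58.96 RPKM (adjusted p = 0.0329 by limma), and the third was Fn1, which like Col3a1 is also on a list of pathway genes. Of 10 macrophage markers 8 were under 1 RPKM in every library, including Ptprc and Adgre1, and the list summed to between 9.29 and 12.03 RPKM in MEF Nf2fl/fl against 7.67 and 9.48 RPKM in those labelled MEF Nf2-/-. Of the epithelial markers 7 of 8, of the endothelial markers 5 of 6 and of the skeletal muscle markers all 4 with a value were under 1 RPKM in every library, with Krt19 and Kdr as the exceptions. The part of these markers in the results was not tested.

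The ligands Tgfb1 and Tgfb2 differed between the lines in opposite directions and without overlap, and the stretches just before their RefSeq start sites are shown because they belong to the pair on which the description turns. Both are on GRCm38.p6 and run 5′ to 3′ on the gene's strand, over the 250 bases before the start. Tgfb1 lies at chr7:25686752-25687001 on the plus strand, and Tgfb2 at chr1:186705990-186706239 on the minus strand. Capitals mark every match, on either strand, to 7 motifs: the TATA box (TATAAA), the GC box (GGGCGG), the E-box (CACGTG), the AP-1 site (TGANTCA), the cAMP response element (TGACGTCA), a SMAD motif (CAGACA) and a TEAD motif (GGAATG).
Tgfb1: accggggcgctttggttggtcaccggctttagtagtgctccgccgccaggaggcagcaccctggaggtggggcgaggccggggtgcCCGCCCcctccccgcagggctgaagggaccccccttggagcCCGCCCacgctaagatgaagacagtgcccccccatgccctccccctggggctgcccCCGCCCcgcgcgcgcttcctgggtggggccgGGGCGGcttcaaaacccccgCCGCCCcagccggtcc
Tgfb2: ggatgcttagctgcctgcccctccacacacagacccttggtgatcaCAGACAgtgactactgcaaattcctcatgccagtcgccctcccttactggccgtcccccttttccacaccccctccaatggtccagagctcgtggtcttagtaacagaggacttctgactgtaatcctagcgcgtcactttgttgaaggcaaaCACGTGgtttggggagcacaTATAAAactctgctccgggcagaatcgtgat
The Tgfb1 stretch held 5 GC boxes and no other of the 7 motifs, and 75.2% of its bases were G or C. The Tgfb2 stretch held a TATA box that began 31 bases before the start, an E-box 51 bases before it and a SMAD motif 204 bases before it, with 53.6% G or C. Over all 32851 mouse promoters of this length, a median of 52.4% of bases were G or C, and 32.7% of the promoters held a GC box, 12.4% a TATA box, 6.0% this E-box and 17.1% this SMAD motif. Neither stretch held the AP-1 site, the cAMP response element or the TEAD motif, which 6.7%, 1.5% and 12.6% of all promoters did. No motif match overlapped another. Of the 10 genes, 8 had a promoter in the RefSeq table used, and among these the cAMP response element was found only before a start of Ltbp1, on chromosome 17 between 75005279 and 75005528. A match is a match of letters and was not tested as a site.

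Tgfb1, the prototype ligand and the main inducer of matrix genes in fibroblasts, had in MEF Nf2fl/fl replicates 1, 2 and 3 an RPKM of 5.36, 5.10 and 6.40. Those labelled MEF Nf2-/- had 2.09, 1.61 and 2.53 RPKM. All 3 of the latter lay under the lowest MEF Nf2fl/fl library. The mean went from 5.62 ± 0.688 to 2.08 ± 0.456 RPKM (SD, n = 3 each), 2.71 times higher in MEF Nf2fl/fl. The log2 fold change was -1.11 ± 0.14 (SE), where log2 fold changes are on the log2(RPKM + 1) scale throughout, which understates the change of low genes. Within replicate numbers 1, 2 and 3 Tgfb1 was 2.56, 3.16 and 2.53 times higher in MEF Nf2fl/fl. In bulk RNA fewer cells that express a gene and less RNA per cell cannot be told apart. The gene spans 25687002 to 25705077 on chromosome 7 (plus strand, GENCODE M21), and at least 157 reads stood behind each value.

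Tgfb2, a ligand best known from embryonic development, went the other way. It had 2.85, 3.14 and 3.14 RPKM in MEF Nf2fl/fl against 9.71, 7.09 and 11.9 RPKM in those labelled MEF Nf2-/-, and the lines did not overlap. The mean went from 3.04 ± 0.169 to 9.56 ± 2.40 RPKM (SD, n = 3 each), a ratio of 3.14 and a log2 fold change of 1.36 ± 0.17 (SE). Within replicate numbers 1, 2 and 3 the ratio was 3.41, 2.26 and 3.79, so it was smallest in replicate 2. Tgfb2 lies on chromosome 1 from 186622792 to 186705989 on the minus strand, and an antisense gene that overlaps it, Gm29491, did not exceed 0.0541 RPKM in any library.

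Tgfb3, a ligand with roles in palate and lung development, was the most abundant ligand in every library. It had 16.9, 48.6 and 32.1 RPKM in MEF Nf2fl/fl against 54.1, 68.1 and 61.3 RPKM in those labelled MEF Nf2-/-. The lowest of the latter was above the highest MEF Nf2fl/fl library, but the MEF Nf2fl/fl libraries themselves ranged widely, with replicate 1 the lowest and replicate 2 the highest. The mean went from 32.5 ± 15.9 to 61.2 ± 7.01 RPKM (SD, n = 3 each), and the log2 fold change was 1.00 ± 0.35 (SE). The ratio within replicate numbers 1, 2 and 3 was 3.20, 1.40 and 1.91, and without MEF Nf2fl/fl replicate 1 the log2 fold change was 0.61. Tgfb3 (chromosome 12, 86056745 to 86079041, minus strand) shares part of its locus with Ttll5 on the opposite strand, which reached at most 1.66 RPKM, and whether the counting used strand is not given in the sources used here.

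**Figure D1:**
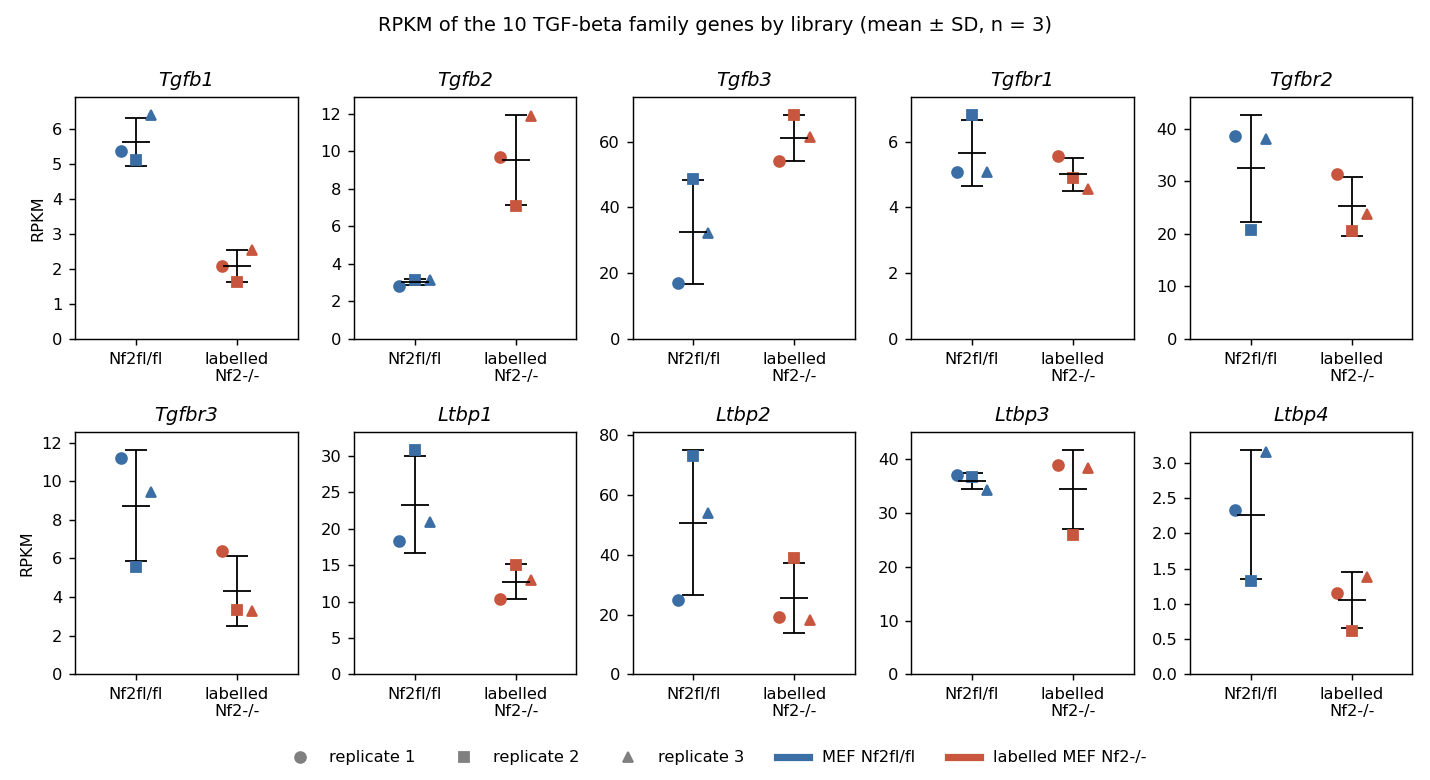
RPKM (y axes, each from 0) of the 10 genes in the 3 MEF Nf2fl/fl libraries (blue) and the 3 libraries labelled MEF Nf2-/- (red). Marker shapes give the replicate number, and bars give the mean ± SD (n = 3). The lines do not overlap for Tgfb1, Tgfb2, Tgfb3 and Ltbp1.

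The summed ligand RNA, most of it Tgfb3, and the share of Tgfb1 in it did not overlap between the lines, and no test was made of either. The 3 ligands summed to 25.1, 56.9 and 41.6 RPKM in MEF Nf2fl/fl against 65.9, 76.8 and 75.7 RPKM in those labelled MEF Nf2-/-. Tgfb1 made up 21.4%, 8.97% and 15.4% of that sum in MEF Nf2fl/fl replicates 1, 2 and 3, and 3.18%, 2.10% and 3.34% in the libraries labelled MEF Nf2-/-. Tgfb3 held between 67.3% and 88.7% of the sum in all 6 libraries, and its share in the lines overlapped. The share of Tgfb2 overlapped as well, from 5.52% to 11.3% in MEF Nf2fl/fl and from 9.23% to 15.7% in the libraries labelled MEF Nf2-/-.

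The ratio of Tgfb2 to Tgfb1 had a small spread among libraries of a line. It was 0.531, 0.616 and 0.490 in MEF Nf2fl/fl, so Tgfb1 was the higher of the pair in each. Those labelled MEF Nf2-/- gave 4.64, 4.39 and 4.70, so Tgfb2 was the higher in each. The ratio of Tgfb3 to Tgfb1 was 3.15, 9.53 and 5.01 in MEF Nf2fl/fl and 25.8, 42.2 and 24.3 in the libraries labelled MEF Nf2-/-, with replicate 2 the highest in both lines.

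**Figure D2:**
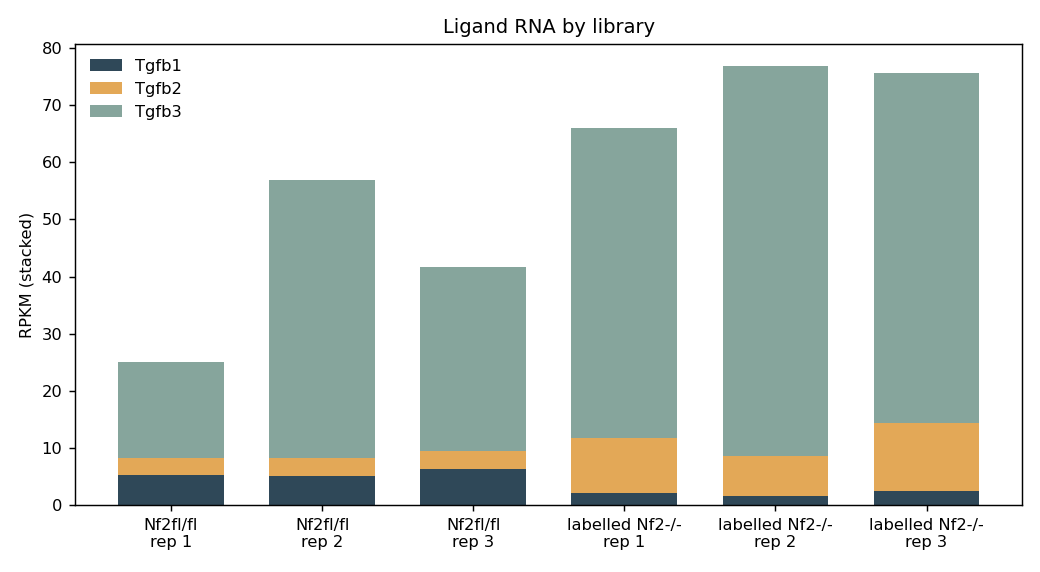
RPKM of Tgfb1, Tgfb2 and Tgfb3 (stacked, y axis from 0) in each library. Tgfb3 is the largest part of every bar, at 67.3% to 88.7%, and the Tgfb1 part is smaller in each library labelled MEF Nf2-/- than in each MEF Nf2fl/fl library.

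The lines overlapped for each of the 3 receptors. Tgfbr1, the type I receptor kinase, had 5.08, 6.82 and 5.08 RPKM in MEF Nf2fl/fl against 5.55, 4.89 and 4.56 RPKM in those labelled MEF Nf2-/-. The lines overlapped, and replicate 1 differed in the opposite direction from the other two. The gene spans 47353222 to 47414931 on chromosome 4 (plus strand), and the log2 fold change was -0.14 ± 0.13 (SE), or -0.02 without MEF Nf2fl/fl replicate 2 and -0.09 without the library labelled MEF Nf2-/- replicate 3. Tgfbr2, the type II kinase that binds the ligand first, had 38.6, 20.7 and 38.2 RPKM in MEF Nf2fl/fl against 31.5, 20.5 and 23.9 RPKM in those labelled MEF Nf2-/-. Tgfbr2 spans 116084293 to 116175360 on chromosome 9 (minus strand). In replicate 2 the lines had nearly the same value, and the log2 fold change was -0.32 ± 0.27 (SE). With single libraries left out it lay between -0.61, without MEF Nf2fl/fl replicate 2, and -0.17, without MEF Nf2fl/fl replicate 1, and leaving out any other library but that labelled MEF Nf2-/- replicate 3 also moved it by over 1.5 times. Without replicate 3 of both lines it was -0.15.

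Tgfbr3, or betaglycan, is a co-receptor without kinase activity that presents ligand, above all TGF-beta2, to the type II receptor. Its values were 11.2, 5.57 and 9.45 RPKM in MEF Nf2fl/fl against 6.40, 3.32 and 3.26 RPKM in those labelled MEF Nf2-/-. The lines overlapped, because MEF Nf2fl/fl replicate 2 lay under the library labelled MEF Nf2-/- replicate 1. Within every replicate number Tgfbr3 was lower in the library labelled MEF Nf2-/-, 1.75, 1.68 and 2.90 times, and the log2 fold change was -0.87 ± 0.30 (SE). Tgfbr3 spans 107106570 to 107289629 on chromosome 5 (minus strand). Per length, Tgfbr2 was the most abundant receptor in all 6 libraries, with 62.6% to 75.3% of the summed receptor RPKM.

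The latent binding proteins were led by Ltbp2 and Ltbp3, and within each replicate number Ltbp1 and Ltbp4, like Ltbp2, were lower in the library labelled MEF Nf2-/-. Ltbp1, which binds all of the latent ligands and places them on fibrillin and fibronectin, had 18.3, 30.8 and 20.9 RPKM in MEF Nf2fl/fl. It had 10.3, 15.0 and 12.9 RPKM in those labelled MEF Nf2-/-, all under the lowest MEF Nf2fl/fl library. The mean went from 23.3 ± 6.62 to 12.7 ± 2.37 RPKM (SD, n = 3 each), and the log2 fold change was -0.81 ± 0.22 (SE). Within replicate numbers 1, 2 and 3 Ltbp1, on chromosome 17 from 75005568 to 75392512 (plus strand), was 1.78, 2.05 and 1.62 times higher in MEF Nf2fl/fl.

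Ltbp4, which binds latent TGF-beta1 only weakly and is needed for elastic fibres, had the lowest mean of the 10 in both lines. Ltbp4 had 2.33, 1.32 and 3.15 RPKM in MEF Nf2fl/fl, a range that overlapped that of Tgfb2. Its values were 1.15, 0.610 and 1.38 RPKM in those labelled MEF Nf2-/-. The gene spans 27305136 to 27337692 on chromosome 7 (minus strand). The lines overlapped by a narrow margin, between MEF Nf2fl/fl replicate 2 and the library labelled MEF Nf2-/- replicate 3. Within replicate numbers the ratio was nearly constant, with 2.02, 2.17 and 2.28 times more in MEF Nf2fl/fl, and the log2 fold change was -0.65 ± 0.25 (SE).

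Ltbp2, which does not bind latent TGF-beta and is a part of microfibrils, spread widely among libraries of a line. It had 25.0, 73.1 and 54.1 RPKM in MEF Nf2fl/fl against 19.3, 38.9 and 18.2 RPKM in those labelled MEF Nf2-/-. The lines overlapped, and the log2 fold change was -0.92 ± 0.44 (SE), ranging from -0.36 in replicate 1 to -1.52 in replicate 3. Without MEF Nf2fl/fl replicate 2 it was -0.60. An antisense gene at its locus on chromosome 12 (84783212 to 84876532, minus strand), D030025P21Rik, did not exceed 1.73 RPKM. Ltbp3, which like Ltbp1 binds all latent ligands, had 37.1, 36.6 and 34.4 RPKM in MEF Nf2fl/fl against 38.9, 26.0 and 38.4 RPKM in those labelled MEF Nf2-/-. Its log2 fold change was -0.09 ± 0.17 (SE), and only replicate 2 was lower. With single libraries of the line labelled MEF Nf2-/- left out, it was -0.18 without replicate 1, 0.099 without replicate 2 and -0.18 without replicate 3. Ltbp3 spans 5740904 to 5758532 on chromosome 19 (plus strand). Reads from the opposite strand of this locus could be among its reads if strand was not used.

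Together the 4 Ltbp genes summed to 82.7, 142 and 112 RPKM in MEF Nf2fl/fl against 69.6, 80.5 and 71.0 RPKM in those labelled MEF Nf2-/-, with no overlap. The sum of the ligands lay higher in each library labelled MEF Nf2-/- than in each MEF Nf2fl/fl library, and the sum of the 4 Ltbp genes lay lower. That sum includes Ltbp2, which made up between 25.7% and 51.5% of it.

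**Figure D3:**
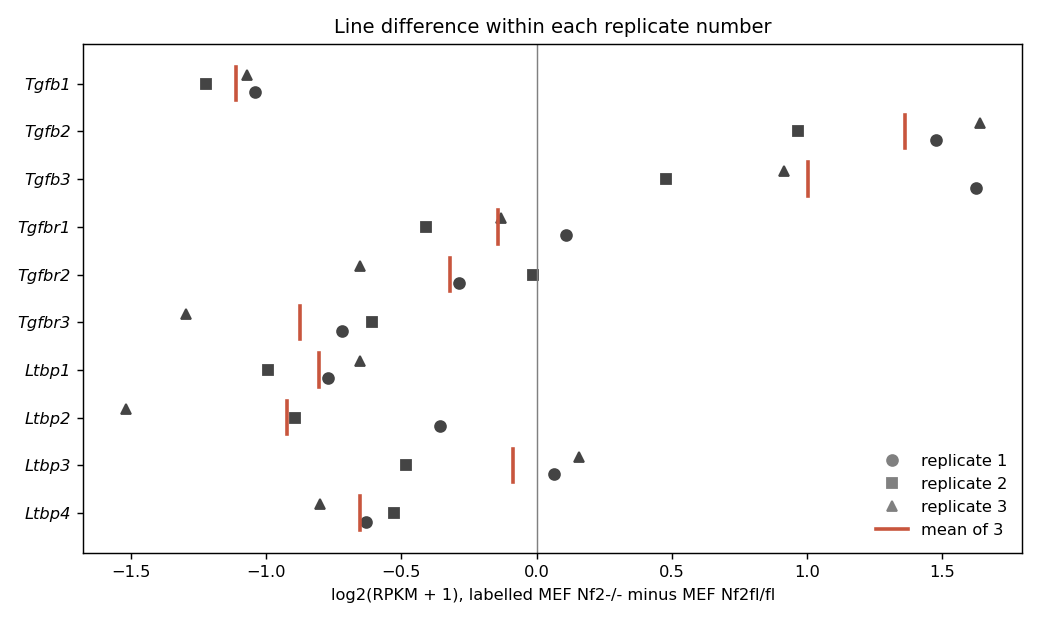
Difference in log2(RPKM + 1) between the library labelled MEF Nf2-/- and the MEF Nf2fl/fl library of the same replicate number (x axis), for each of the 10 genes (y axis), with the mean of the 3 as a red line. Tgfb2 and Tgfb3 lie right of 0 in all 3 replicate numbers. Tgfb1, Tgfbr2, Tgfbr3, Ltbp1, Ltbp2 and Ltbp4 lie left of 0 in all 3.

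Across all 10 genes, the library labelled MEF Nf2-/- was higher in all 3 replicate numbers for 2 and lower in all 3 for 6. Of the 11067 genes tested 46.9% had the same sign in all 3, 22.3% higher and 24.6% lower. The lines did not overlap for 4 of the 10, 2 higher and 2 lower, against 15.1% of all genes tested (7.6% higher, 7.52% lower). All 10 passed the filter of at least 1 RPKM in at least 3 libraries. Past an adjusted p of 0.05 (limma without a block, Benjamini-Hochberg over all genes tested) were Tgfb1, lower, and Tgfb2, higher, against 1.06% of all genes (0.479% higher, 0.578% lower). With the replicate number as a block, 5 of the 10 were past it, Tgfbr3, Ltbp1 and Ltbp4 all lower, beside the first pair, against 7.53% of all genes (2.99% higher, 4.54% lower). Nothing is read from these counts, because the genes were chosen on this contrast. The count without a block was 0 when any single library of replicates 1 or 3 was left out, where 10 to 18 of all genes passed. It was 2 without either replicate 2 library (142 and 92 of all genes) and 4 without both (484 of all genes). With single libraries left out the log2 fold change lay between -1.21 and -0.999 for Tgfb1 and between 1.20 and 1.54 for Tgfb2.

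Per length, the order of the 10 genes in MEF Nf2fl/fl by mean level was Ltbp2, Ltbp3, Tgfb3, Tgfbr2, Ltbp1, Tgfbr3, Tgfbr1, Tgfb1, Tgfb2 and Ltbp4. Between neighbours in that order the ranges of the libraries were apart only between Ltbp1 (23.3 ± 6.62 RPKM) and Tgfbr3 (8.74 ± 2.87 RPKM) and between Tgfb1 (5.62 ± 0.688 RPKM) and Tgfb2 (3.04 ± 0.169 RPKM; SD, n = 3 each). In the libraries labelled MEF Nf2-/- the order was Tgfb3, Ltbp3, Ltbp2, Tgfbr2, Ltbp1, Tgfb2, Tgfbr1, Tgfbr3, Tgfb1 and Ltbp4. Tgfb3 stood apart at the top there, and Tgfb2 had moved from ninth to sixth place with a range apart from that of Tgfbr1 below it.

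Among the 7024 tested genes whose mean reached 5 RPKM, the profile of Tgfb1 over the 6 libraries was most like those of Crabp1, Emp2 and Pak1 (Pearson's r of log2(RPKM + 1) = 0.996, 0.995 and 0.992). The profile of Tgfb2 was most like those of Tgm2, Dlg1 and Matr3 (r = 0.988, 0.987 and 0.986). Matr3 itself moved little, with between 46.6 and 47.5 RPKM in MEF Nf2fl/fl against between 48.7 and 49.9 RPKM in those labelled MEF Nf2-/-. These are descriptions over 6 points that fall into 2 lines, so any gene that differs steadily between the lines scores high.

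Each replicate number holds a library of both lines, so the numbers can be compared apart from the line difference. The difference of replicate 2 was known from earlier results of these data when the genes and lists were chosen, and it is no independent evidence about them. Tested with the line as a block (limma F-test over the 3 replicate numbers, Benjamini-Hochberg over all genes tested), 3 of the 10 genes differed between the numbers, against 21.2% of all 11067 genes. These were Ltbp4 (adjusted p = 0.0238), Ltbp1 (adjusted p = 0.0278) and Tgfbr2 (adjusted p = 0.0480), and the rest did not pass. Under quantile normalization only Ltbp1 passed, and the call of Tgfbr2 was also lost under median centring and without trend and robust settings. In both lines Ltbp1 was highest in replicate 2, at 1.57 times the mean of replicates 1 and 3 in MEF Nf2fl/fl and 1.29 times in the libraries labelled MEF Nf2-/-. Ltbp4 and Tgfbr2 were lowest in replicate 2 of both lines, with Ltbp4 at 0.482 and 0.480 times that mean and Tgfbr2 at 0.539 and 0.741 times. Without replicate 2, 0 of the 10 and 0 of all genes differed by limma (3 of the 10 at an unadjusted p under 0.05). Without replicate 3 it was 5 of the 10, against 24.3% of all genes, and without replicate 1 it was Ltbp4 and Tgfb1, against 24.4% of all genes.

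Genes known to respond to TGF-beta were among those that differed between the replicate numbers, and so were fibroblast markers. Of a list of 28 TGF-beta target genes of fibroblasts, 22 were tested and 12 differed between the numbers, against 21.2% of all genes. In 8 of these 12 replicate 2 was above both other replicates in each line. Ccn2, a matricellular protein listed in the table as Ctgf, had 44.5, 739 and 71.9 RPKM in MEF Nf2fl/fl against 79.1, 673 and 141 RPKM in those labelled MEF Nf2-/- (adjusted p = 0.00611 between the numbers, limma F-test). Also among the 8 were the contractile genes Acta2, Tagln and Cnn1, the hyaluronan synthase Has2, the transcription factor Junb and the protease inhibitor Timp1. The fibrillar collagens Col1a1, Col1a2 and Col3a1 and the CDK inhibitor Cdkn2b, which are on the same list, were below both others in replicate 2 of each line. Of the 9 tested fibroblast markers 5 differed between the numbers as well, the 3 collagens and Pdgfrb below and Thy1 above both others in replicate 2 of each line, and so did 5 of 9 tested activins and related genes. The shares of these 3 lists were 54.5% of the target genes, 55.6% of the fibroblast markers and 55.6% of the activins, so nothing particular to the target genes is read from them. The 3 collagens and Fn1 are both on the target list and among the fibroblast markers, so those shares are not independent of each other. The part of the markers was not tested.

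Smad7, the inhibitory SMAD that the pathway itself induces, showed the same order, with 5.70, 24.1 and 5.74 RPKM in MEF Nf2fl/fl against 6.47, 18.6 and 7.39 RPKM in those labelled MEF Nf2-/- (adjusted p = 0.0087 between the numbers, limma F-test). Of 17 SMADs and regulators 4 differed between the numbers, Smad7, Skil, Smurf2 and Pmepa1. That share of 23.5% is near the 21.2% of all genes and is no result about the list. Of the 3 ligands 0 passed this limma test over all 3 numbers (2 at an unadjusted p under 0.05). Ccn2 and the further genes of these last comparisons, other than cell type markers, Acta2, Timp1, Col1a1, Col3a1 and Pmepa1, were chosen after their values were seen.

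**Figure D4:**
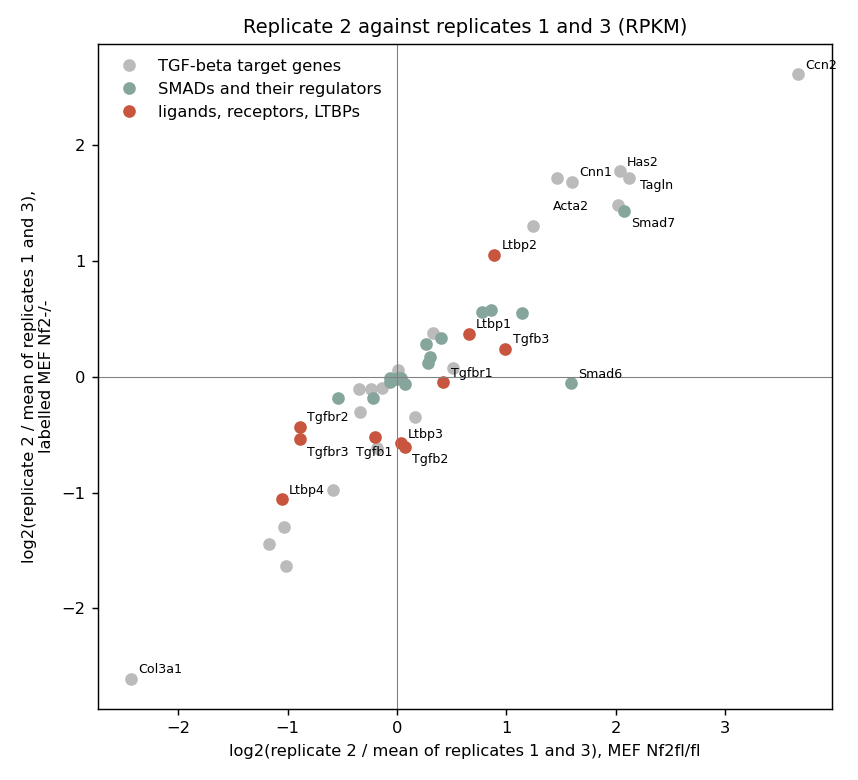
log2 of the ratio of replicate 2 to the mean of replicates 1 and 3, in RPKM, in MEF Nf2fl/fl (x axis) and in the libraries labelled MEF Nf2-/- (y axis), for the 10 genes (red), tested TGF-beta target genes (grey) and the tested SMADs and regulators (green). Ccn2 lies farthest to the upper right, Ltbp2, Ltbp1 and Tgfb3 lie above 0 on both axes, and Ltbp4, Tgfbr2, Tgfbr3 and Tgfb1 lie below 0 on both.

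Between the lines, other genes of the pathway were read from 5 lists with 84 genes in all, of which 83 were in the table and 67 were tested. Without a block 2 of the 67 passed, both lower in the libraries labelled MEF Nf2-/-, against 1.06% of all genes. With the replicate block 11 passed, 4 higher and 7 lower, against 7.53% of all genes. The median log2 fold change of the 67 was -0.02 and that of all genes tested -0.01.

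The pair that passed without a block were Dcn and Fn1. Dcn met the filter of 1 RPKM in 3 libraries through MEF Nf2fl/fl alone, so once tested it had to be the lower in the other line, and its call is given as a description. Dcn encodes decorin, a small proteoglycan that can bind TGF-beta, and it went from 2.57, 1.599 and 4.01 RPKM in MEF Nf2fl/fl to 0.133, 0.0266 and 0.112 RPKM (log2 fold change -1.72 ± 0.24 SE, adjusted p = 0.0348 by limma). Fn1, the matrix protein fibronectin and a classical TGF-beta target, fell from 475 ± 17.9 to 305 ± 9.43 RPKM (SD, n = 3 each; log2 fold change -0.63 ± 0.09 SE, adjusted p = 0.0390 by limma). Both calls were lost without any single library of replicates 1 or 3, and also without the library labelled MEF Nf2-/- replicate 2, while in those fits the log2 fold change stayed between -1.75 and -1.48 for Dcn and between -0.66 and -0.61 for Fn1. That of Fn1 was also lost without MEF Nf2fl/fl replicate 2 and under quantile normalization.

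In the list of latency and activation genes, 0 of 14 tested passed without a block (4 at an unadjusted p under 0.05) and 3 passed with it, against 1.06% and 7.53% of all genes. Thbs1, thrombospondin-1, which can activate latent TGF-beta, had 124, 471 and 217 RPKM in MEF Nf2fl/fl against 649, 821 and 813 RPKM in those labelled MEF Nf2-/- (log2 fold change 1.69 ± 0.45 SE, adjusted p = 0.206 by limma, 0.0335 with the replicate block). It also passed without replicate 2 of both lines and without MEF Nf2fl/fl replicate 2 (adjusted p = 0.0143 and 0.0199 by limma). In the former fit Lrrc32 and Plat of this list, and Smad6 of the SMADs, passed as well (named after their values were seen), against 4.37% of all genes. Itgb3, the integrin beta3 chain, went from 2.51 ± 0.358 to 1.495 ± 0.142 RPKM, and Bmp1, a protease that cleaves procollagens and latent binding proteins, from 10.0 ± 1.26 to 7.95 ± 1.02 RPKM (SD, n = 3 each), and both were lower with the block (adjusted p = 0.0391 and 0.0414 by limma). Itgb1, the integrin beta1 chain, which with Thbs1 had the highest mean levels of the list over the 6 libraries, had 335 ± 103 and 345 ± 78.0 RPKM.

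Of 5 tested co-receptors and binding proteoglycans, Dcn, which met the filter through MEF Nf2fl/fl alone, was past the threshold in both fits, and of the other 4 Eng passed with the block. The shares of all genes were 1.06% without the block and 7.53% with it. Eng encodes endoglin, a co-receptor of the same family as betaglycan. It went from 38.5, 43.9 and 39.7 RPKM to 49.4, 55.4 and 49.1 RPKM (log2 fold change 0.33 ± 0.10 SE, adjusted p = 0.267 by limma, 0.0390 with the replicate block). Bgn, the proteoglycan biglycan, was the most abundant of the list with 260 ± 46.4 and 194 ± 14.9 RPKM (adjusted p = 0.420 by limma).

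Of the 17 SMADs and their regulators 0 passed, with or without the block (2 at an unadjusted p under 0.05 without it), and Smad6 passed once replicate 2 of both lines was left out. Their median log2 fold change was 0.05. The most abundant were Ski, a corepressor of SMADs, with 34.7 ± 0.880 and 38.3 ± 1.02 RPKM, and Pmepa1, a feedback inhibitor, with 34.1 ± 11.4 and 38.2 ± 10.1 RPKM (SD, n = 3 each). Of the 9 tested activins, related ligands and their receptors and binders, 0 passed without a block (1 at an unadjusted p under 0.05). Among all genes 1.06% passed without the block and 7.53% with the block. With it Inhbb, the activin beta-B subunit, was lower in the libraries labelled MEF Nf2-/-, at 5.15, 3.80 and 9.08 RPKM against 2.16, 1.33 and 2.13 RPKM (adjusted p = 0.145 by limma, 0.0146 with the replicate block), and it passed as well once both replicate 2 libraries were left out (adjusted p = 0.0337 by limma). Inhba, the beta-A subunit and the most abundant of this list, and Fst, which encodes the activin binder follistatin, did not pass, with 29.4 ± 20.1 and 37.0 ± 14.5 RPKM for Inhba and 5.05 ± 2.29 and 7.15 ± 4.21 RPKM for Fst.

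Among the 22 tested target genes of fibroblasts 11 had a positive and 11 a negative log2 fold change, with a median of 0.03. Beside Fn1, which passed in both fits, 4 passed only with the replicate block. Of all genes 1.06% passed without the block and 7.53% with it. Acta2, smooth muscle actin, and Tpm1, a tropomyosin, were higher (log2 fold change 0.72 ± 0.69 and 0.62 ± 0.19 SE, adjusted p = 0.0487 and 0.0341 by limma with the block). Col3a1, a collagen III chain, and Timp1, an inhibitor of metalloproteinases, were lower (log2 fold change -1.01 ± 0.89 and -0.70 ± 0.60 SE, adjusted p = 0.0274 and 0.0436 by limma with the block). The errors given here are those without the block, which include the difference of replicate 2. Each of the 6 libraries, left out alone, moved at least 1 of Acta2, Col3a1 and Timp1 by over 1.5 times. On the log2 scale Acta2 then ranged from 0.19 without MEF Nf2fl/fl replicate 1 to 1.40 without MEF Nf2fl/fl replicate 2. Without that same replicate 2 Col3a1 was at -1.80 and Timp1 at -0.20, and leaving out replicate 2 of the line labelled MEF Nf2-/- instead gave -0.22 and -1.27. Col1a1, a collagen I chain and after Acta2 the most abundant gene of the list, had 581 ± 139 and 436 ± 153 RPKM and did not pass.

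**Figure D5:**
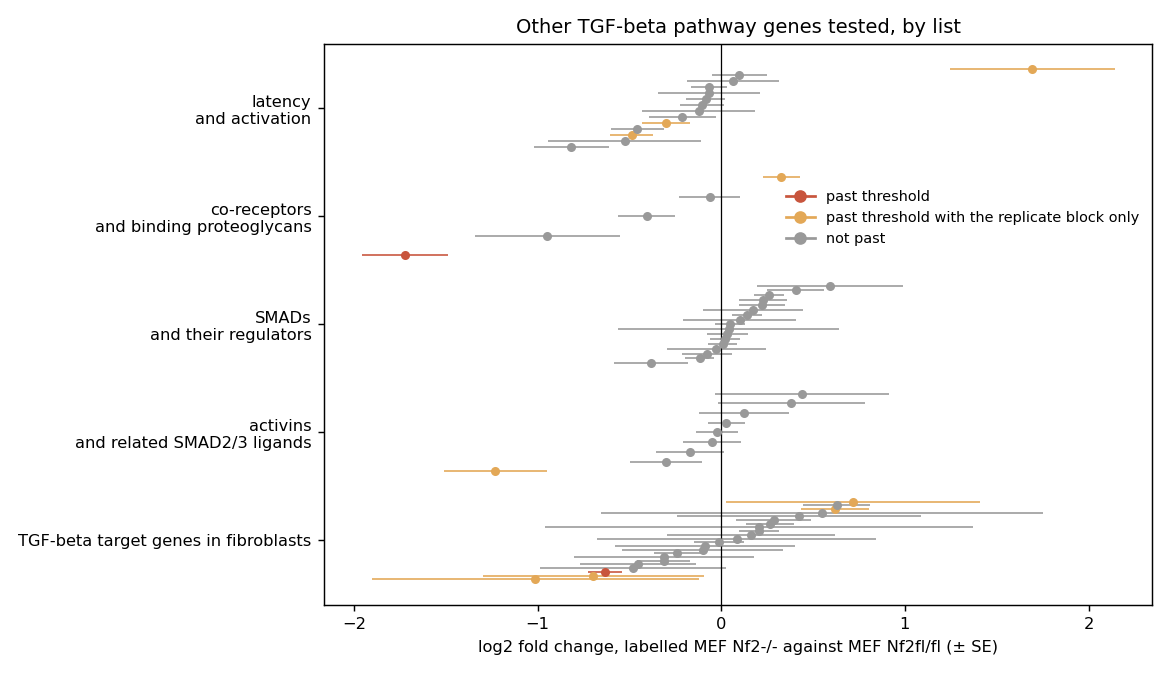
log2 fold change between the lines (x axis, ± SE) of the 67 tested genes of 5 TGF-beta pathway lists (y axis, a gene per point). Red points passed an adjusted p of 0.05 without a block (Dcn and Fn1) and yellow points only with the replicate block.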

How the data were processed

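RNA of 3 MEF Nf2fl/fl and 3 MEF Nf2-/- libraries was sequenced and analysed by GENEWIZ, and mm10 is the genome build in the submitters' processing notes. The aligner, the counting tool and its use of strand are not given in the sources used here. The authors deposited a table of 26231 genes whose values are taken as RPKM, which these values cannot tell from FPKM. Multiplied by the exon length in GENCODE M21 (25986 genes), between 83.2% and 85.1% of values no larger than 20 reads were within 0.05 of a whole read at the best step per library, against 3.6% to 7.4% at a typical wrong step, and this step gives the depth. Each gene rests on at least 76 reads in a library among the 10 described.

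Values were set to log2(RPKM + 1), and the 11067 genes that reached 1 RPKM in 3 or more libraries were fitted with limma 3.58.1 in R 4.3.3 (trend and robust settings, two-sided, Benjamini-Hochberg, threshold 0.05), without a covariate, as the study states an unpaired test in its methods. Same-numbered libraries deviated together from their line means (r = 0.552, 0.819 and 0.516 across genes for replicates 1, 2 and 3). Deviations from a line mean cancel within that line, so a replicate 2 that differs in both lines also raises r for replicates 1 and 3. Pairing of replicates 1 and 3 is therefore not shown by these values. Same-numbered libraries were still taken as pairs in a fit blocked on that number. Its values stand beside the results whose call they change. The same fit gave the F-test of the replicate number.

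The 10 genes and the gene lists were chosen with earlier results of these data known. The genes named are the 10, Nf2, pathway genes past the threshold in either fit, the 2 most abundant of each pathway list, and the 3 genes most like Tgfb1 and Tgfb2. Others are said to be chosen after their values were seen, apart from cell type markers. The fits were tested on simulated data drawn without a difference between replicate numbers. That check does not cover fits where the replicate numbers differ, as they did here. Alternatives were the block, a lower pseudocount (0.1), a stricter filter (5 RPKM) or none, centring on the median, quantile normalization, limma without trend and robust settings, and each replicate number and library left out. Figures were drawn with matplotlib 3.10.9. Some items are not reported here.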

Additional observations from a re-analysis of the deposited data

How the results depend on the processing

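Between the lines, the 117 genes past the threshold (53 higher, 64 lower), the 2 of the 10 TGF-beta family genes and the 2 of the other pathway genes became 833, 5 and 11 with the replicate block, and 9, 0 and 0 with no filter, where 26231 genes enter the adjustment (at an unadjusted p under 0.05 there were 1937, 6 and 16). With a filter of 5 RPKM they were 63, 2 and 1, since Dcn did not meet that filter and was not tested. The number of pathway genes was also 1 under quantile normalization, where Fn1 did not pass, and the cause was not tested. The cause of the lower counts with no filter was not tested either. Leaving out a replicate number or a library gave 0 to 484 genes, 0 to 4 of the 10 and 0 to 7 pathway genes. The lowest values were those without replicate 1 and without replicate 3 (0 of all genes, with 578 and 556 at an unadjusted p under 0.05 by limma), and the highest that without replicate 2. Limma without trend and robust settings, median centring and a pseudocount of 0.1 kept Dcn and Fn1 past the threshold. With a pseudocount of 0.1 the log2 fold change of Dcn was -3.85, that of Tgfb1 -1.41 and that of Ltbp4 -1.03.

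Between the replicate numbers, the 3 of the 10 genes that differed became 1 under quantile normalization (Ltbp1). With no filter 0 of the 10 and 0 of all genes passed by limma (6 of the 10 at an unadjusted p under 0.05). Neither cause was tested, and leaving out a replicate number gave 0 to 5 of the 10. Which genes passed changed too: Ltbp2 passed in place of Tgfbr2 without trend and robust settings and under median centring, and Tgfbr3 in place of Ltbp4, which was not tested, with a filter of 5 RPKM.

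Values near 0 changed sign in genes that were not past the threshold. Ltbp3 was at 0.11 without replicate 2 and 0.099 without the library labelled MEF Nf2-/- replicate 2. Over the fits that left out a replicate number or a library, the log2 fold change of Nf2 ranged from -0.030 to 0.091, that of Itgb1 from -0.13 to 0.30, that of Pmepa1 from -0.013 to 0.43 and that of Fst from -0.013 to 0.66. With 3 libraries a line, the replicate number and the single line of each genotype limit what these data can show. Replicate 3 of both lines is the deepest, so genes of low RPKM are less precise in replicates 1 and 2.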
